A study of Mus musculus with 42 samples.

Results

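Olfr828 to Olfr878 are a run of consecutively numbered odorant receptor (OR) genes on mouse chromosome 9, and 35 of them were examined here out of 1088 ORs in the odor exposure data. They are every gene name from Olfr828 to Olfr878 without a pseudogene suffix that appeared in all 9 deposited tables. The range was set with earlier results of these data known, and its rule names Olfr837, an OR already reported by the study. The other ORs of chromosome 9 named here, Olfr881 to Olfr985, number 73. The study exposed C57BL/6 mice (C57BL/6J in its methods) of postnatal day 20 to 22 for 1 h to acetophenone (ACT) or to TMT, a trimethylthiazoline known from fox odor, each at 4 concentrations by volume (0.01%, 0.1%, 1% and, undiluted, 100%), or left them without odor, with 3 libraries in each group. Ribosomes carrying phosphorylated S6 (pS6) were then captured from the olfactory epithelium and their RNA was sequenced (pS6-IP-Seq, 36 libraries). Each odorant had 2 sets of 3 no odor libraries, one shared by 0.01% and 0.1% and the other shared by 1% and 100%, and each replicate number stood for littermates of the same sex. Dorsal and ventral epithelium of mice labelled as without odor, of the same strain and age, was sequenced from 3 libraries each. The study's methods and the labels' experiment type describe these as RNA-Seq of extracted RNA, whereas the protocol text in their labels is that of the pS6 capture, and they are taken as RNA-Seq here.

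An olfactory sensory neuron (OSN) expresses a single OR at a high level, and the OR is a G-protein-coupled receptor that opens the odor response through the cAMP pathway. Neuronal activity leads to phosphorylation of S6, so the RNA of an OR is captured more strongly when the neurons that express it have been active. OR genes lie in clusters that arose by tandem duplication, and each OR is used within a zone of the epithelium that runs from dorsal to ventral. In these bulk samples, more neurons of a kind and more RNA per neuron cannot be told apart.

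The 35 genes lay in 2 separate clusters. In the GENCODE M21 annotation of GRCm38, 30 of them (Olfr828 to Olfr873) occupied chr9:18814728-20303599, a stretch of 1488.9 kb, with 18 genes on the plus strand and 12 on the minus strand. The other 5, Olfr874 to Olfr878, lay at chr9:37745106-37922474, 17441.5 kb further along, all on the plus strand and only 69.4 kb before the first gene of the Olfr881 to Olfr985 series. The number series thus joined a proximal cluster with the opening genes of the second chromosome 9 cluster, called distal here. Coding sequences followed the same division. Any pair of a proximal and a distal gene had 55.12% to 61.67% identical coding bases (150 pairs, median 59.18%), whereas the 10 pairs among the distal genes had 68.48% to 95.61% and the 435 pairs among the proximal genes 59.25% to 97.54%. The closest pairs were Olfr870 and Olfr871 (97.54%), Olfr874 and Olfr875 (95.61%), Olfr832 and Olfr834 (95.53%), Olfr869 and Olfr872 (95.37%) and Olfr836 and Olfr837 (90.99%).

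Olfr874 and its closest relative Olfr875 carry the main contrast between relatives described below, so the opening 120 coding bases of each are shown, with the 5 bases at which they differ in capitals. Over the whole coding sequence they differed at 41 bases with no gap.
Olfr874: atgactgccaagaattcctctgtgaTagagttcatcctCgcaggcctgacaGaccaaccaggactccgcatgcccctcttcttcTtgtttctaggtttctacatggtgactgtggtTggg
Olfr875: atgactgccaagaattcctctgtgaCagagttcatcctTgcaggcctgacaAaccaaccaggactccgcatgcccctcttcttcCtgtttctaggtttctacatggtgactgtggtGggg
With reads of 50 bases, similarity on this scale bears on how reads are assigned. Of all stretches of 50 bases in the annotated transcripts of Olfr874, 7.511% also occurred in another gene, and for Olfr875 the share was 14.594%. The shares were 3.09% for Olfr837, 8.093% for Olfr860 and 0.085% for Olfr851. Among the 35 genes Olfr871 had the highest share, 27.505%, all of it shared with Olfr870. Olfr857 (22.68%, mainly with Olfr58), Olfr869 (13.033%) and Olfr872 (12.229%) also had high shares. The values of these genes, and to a degree those of Olfr874 and Olfr875, are uncertain.

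Promoter sequences of the 3 ORs with the firmest TMT response are shown next, from 250 bases before to 50 bases after the 5' end of the gene model in GENCODE M21, read from the GRCm38 genome. Capitals mark matches, on either strand, to the core bound by Olf1/EBF factors (TCCC and GGGA with any 2 bases between) or to a homeodomain core (TAATTA), motifs known from OR promoters.
Olfr874 promoter, chr9:37744856-37745155, plus strand: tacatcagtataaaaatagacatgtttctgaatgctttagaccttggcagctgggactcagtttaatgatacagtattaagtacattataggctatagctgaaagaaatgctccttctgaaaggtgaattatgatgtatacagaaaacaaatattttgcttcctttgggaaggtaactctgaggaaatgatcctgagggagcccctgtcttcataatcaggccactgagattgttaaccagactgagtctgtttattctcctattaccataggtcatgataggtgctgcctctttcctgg
Olfr851 promoter, chr9:19493045-19493344, plus strand: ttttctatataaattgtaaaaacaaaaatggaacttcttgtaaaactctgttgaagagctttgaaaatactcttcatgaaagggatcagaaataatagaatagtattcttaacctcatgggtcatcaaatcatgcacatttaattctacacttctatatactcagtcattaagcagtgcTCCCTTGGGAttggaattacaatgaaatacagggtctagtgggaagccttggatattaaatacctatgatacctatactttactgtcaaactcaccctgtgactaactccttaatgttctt
Olfr860 promoter, chr9:19849698-19849997, minus strand: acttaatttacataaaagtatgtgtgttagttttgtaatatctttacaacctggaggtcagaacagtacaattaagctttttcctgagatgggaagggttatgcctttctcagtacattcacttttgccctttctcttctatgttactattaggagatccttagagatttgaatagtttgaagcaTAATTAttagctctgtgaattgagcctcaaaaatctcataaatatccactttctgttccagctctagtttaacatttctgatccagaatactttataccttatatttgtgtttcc
Olfr851 had an Olf1/EBF match 71 bases before the start, Olfr860 had a homeodomain match 65 bases before the start, and Olfr874 had neither in this window. Of the 32 members whose gene model begins before the coding sequence, 3 held the Olf1/EBF core (9.38%), against 2.77% of 1010 ORs and 0.994% of 20928 protein-coding genes in windows of the same length. TAATTA was present in 10 of the 32 (31.2%), against 25.2% of the ORs and 5.28% of the protein-coding genes. These are counts of letters and say nothing about binding.

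Sequencing depth was modest. The pS6 libraries held 37012 to 128805 OR counts and the dorsal and ventral libraries 155319 to 242123, and the 35 genes together took 0.724% to 2.04% of the OR counts in the pS6 libraries. Values below are normalized counts, that is, counts scaled by TMM (trimmed mean of M values) to 100000 OR counts per library, with one scale for the pS6 libraries and another for the dorsal and ventral libraries. Fold changes and adjusted p-values come from edgeR's quasi-likelihood test with litter (for the zones, replicate number) as a block and Benjamini-Hochberg adjustment over all ORs, and "called" means an adjusted p under 0.05. The test gives no standard error (SE). Each SE is the absolute log2 fold change divided by the square root of the F statistic, and it is approximate, above all for ORs with few counts. One library stood apart before any comparison. In litter 1 at 0.01% ACT, 101 of 922 ORs were more than 4-fold above the no odor littermate, against 7 to 18 ORs in the other libraries at 0.01% and 0.1% of either odorant. These 922 ORs averaged at least 10 normalized counts over the pS6 libraries. None of 18 marker genes of neurons, supporting, basal, glandular and respiratory cells is in the OR tables, so the cell makeup of the libraries was not examined.

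Without odor the distal genes had the higher median level, though the ranges of the 2 clusters overlapped. Exon lengths were those of GENCODE M21, whereas the counts rest on the authors' custom annotation, so the order per kilobase is approximate. Per kilobase of exon, the highest means over the 12 no odor libraries were those of Olfr874 (28.2 ± 6.90, SD), Olfr875 (27.5 ± 9.48), Olfr855 (22.5 ± 6.86), Olfr860 (18.7 ± 6.54) and Olfr847 (18.3 ± 5.25), and the differences between neighbours in this order were within 1 SD. Olfr878 and Olfr877 followed in sixth and seventh place, so that 4 of the 5 distal genes were among the first 7 of 35. The lowest were Olfr836 (0.738 ± 0.562), Olfr850 (0.630 ± 0.985), Olfr846 (0.590 ± 0.675), Olfr853 (0.323 ± 0.397) and Olfr834, which had no count in any no odor library and only 4 counts in all 36 pS6 libraries. Before division by length, the median of the 30 proximal genes was 10.7 normalized counts and that of the 5 distal genes 56.2, beside a median of 43.7 over all 1088 ORs. On that scale the proximal genes ranged from 0 to 83.7 and the distal genes from 46.3 to 74.2. The highest members were then the proximal genes Olfr851 (83.7) and Olfr873 (77.6). Close relatives could lie far apart in level: Olfr847 averaged 43.7 normalized counts and Olfr846, with 88.94% coding identity, 2.56.

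**Figure D1:**
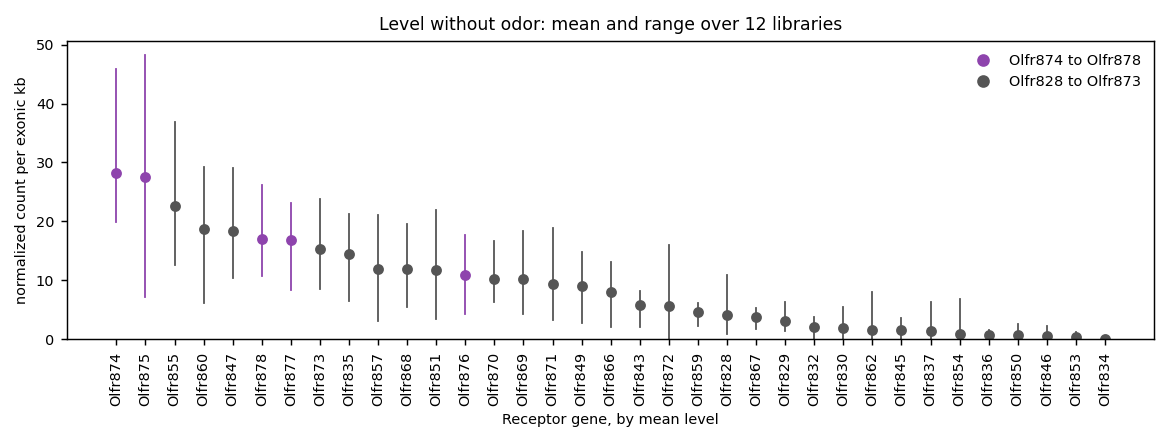
Level of each OR without odor, in normalized counts per exonic kilobase, ordered by the mean. Points are means and lines the range over the 12 no odor libraries; the distal genes Olfr874 to Olfr878 are in purple and 4 of them are among the 7 highest means.

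Comparing dorsal with ventral epithelium asks which zone each OR is used in. All 5 distal genes were dorsal. Of the 30 proximal genes, 2 were called dorsal, 8 ventral and 20 in neither direction. Over all ORs, 37.4% were called dorsal and 37.2% ventral, whereas 20.0% of the 35 members were called dorsal and 22.9% ventral; of the 73 genes Olfr881 to Olfr985, 43 (58.9%) were called dorsal and 10 ventral. The median log2 fold change (dorsal over ventral) was -0.77 for the proximal and 3.57 for the distal genes, beside -0.67 over all ORs and 2.76 over Olfr881 to Olfr985.

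Olfr878 showed the widest difference between zones. Its dorsal libraries held 522, 364 and 693 normalized counts and its ventral libraries 18.9, 39.6 and 33.8, a log2 fold change of 4.11 ± 0.62 (SE, adjusted p = 1.52e-04 by edgeR). Olfr847 held 215, 140 and 267 dorsally and 10.2, 18.1 and 17.6 ventrally (log2 fold change 3.75 ± 0.64, adjusted p = 2.23e-04 by edgeR). The lowest dorsal library of each was far above its highest ventral library. Olfr874 (3.57 ± 0.61) and Olfr875 (3.57 ± 0.63) had nearly the same log2 fold change, and Olfr877 (3.37), Olfr846 (3.10) and Olfr876 (3.04) were also called dorsal. Olfr846 and Olfr847 lie next to each other inside the proximal cluster, between the members Olfr845, which was called ventral, and Olfr849, which was called in neither direction. The pair is therefore the one dorsal place in a cluster whose other called genes were all ventral.

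Olfr868 was the most ventral. It held 39.4, 130 and 18.3 normalized counts in the dorsal libraries and 270, 248 and 237 in the ventral ones, a log2 fold change of -2.46 ± 0.69 (SE, adjusted p = 6.15e-03 by edgeR). Olfr869 held 14.1, 20.6 and 3.38 dorsally and 35.0, 36.1 and 40.8 ventrally (-1.75 ± 0.65, adjusted p = 0.0269 by edgeR). In both the dorsal library of replicate 2 was the highest of its group and still below every ventral library. Olfr828 (-1.52), Olfr830 (-1.51), Olfr845 (-1.51), Olfr873 (-1.36), Olfr832 (-1.34) and Olfr857 (-1.31) made up the rest. The 20 genes called in neither direction ran from -1.94 for Olfr853 to 1.01 for Olfr850 and were Olfr829, Olfr834, Olfr835, Olfr836, Olfr837, Olfr843, Olfr849, Olfr850, Olfr851, Olfr853, Olfr854, Olfr855, Olfr859, Olfr860, Olfr862, Olfr866, Olfr867, Olfr870, Olfr871 and Olfr872. The 7 dorsal calls were made in every fit, beside 31.3% to 39% of all ORs called dorsal. None of the 8 ventral calls was made without replicate 1 or without replicate 3, where 18.9% and 18.5% of all ORs were called ventral. DESeq2 made 3 of the 8 ventral calls and called 34.1% of all ORs ventral.

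**Figure D2:**
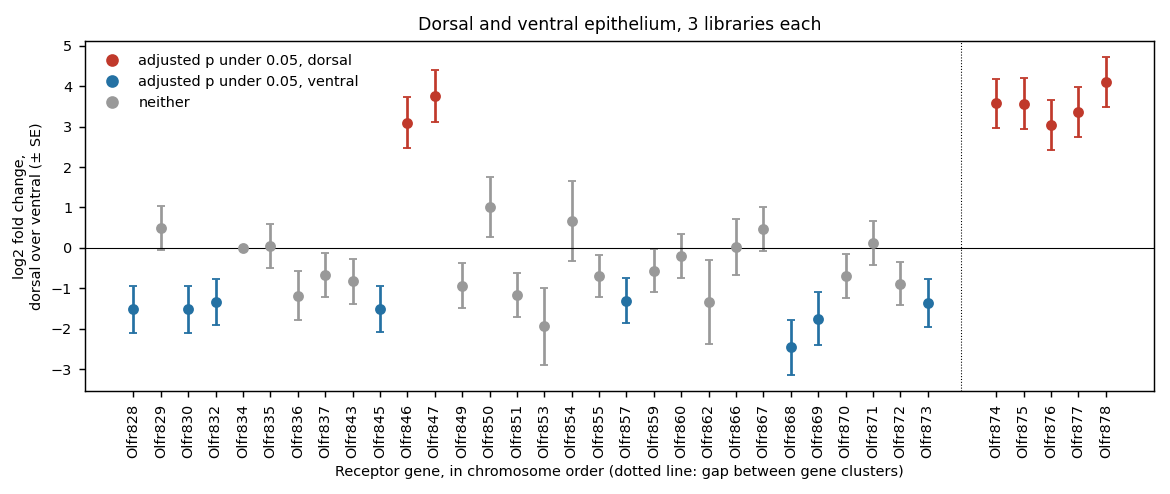
Log2 fold change of dorsal over ventral epithelium for the 35 ORs in chromosome order, with SE bars and 3 libraries per zone. Red and blue points have an adjusted p under 0.05 and grey points do not; the 5 distal genes and the neighbours Olfr846 and Olfr847 lie at 3.04 or above, and all other members at 1.01 or below.

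The odor comparisons ask which of these ORs were captured more strongly after exposure, concentration by concentration. At 100% TMT, 4 of the 35 members rose and none fell, which is 11.4% of the members beside 11.6% of all ORs that rose and 3.31% that fell, so the share of members was that of ORs at large. With size factors over all genes, 9.1% of all ORs rose and 11.3% fell, and the 4 members still rose. At 1% TMT, 1 member rose and none fell (4.69% of all ORs rose and 0.184% fell). At 0.1% TMT (1.38% rose, 0.643% fell) and 0.01% TMT (0.368% rose, 0.0919% fell) no member was called by edgeR. DESeq2 called no member either, beside 1.47% and 0.368% of all ORs. By edgeR 2 and 0 members had an unadjusted p under 0.05, beside 7.17% and 5.15% of all ORs. The median log2 fold change of the members was 0.12, 0.04, -0.04 and 0.10 from 0.01% to 100% TMT, beside 0.00, 0.00, -0.05 and -0.09 over all ORs.

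**Figure D3:**
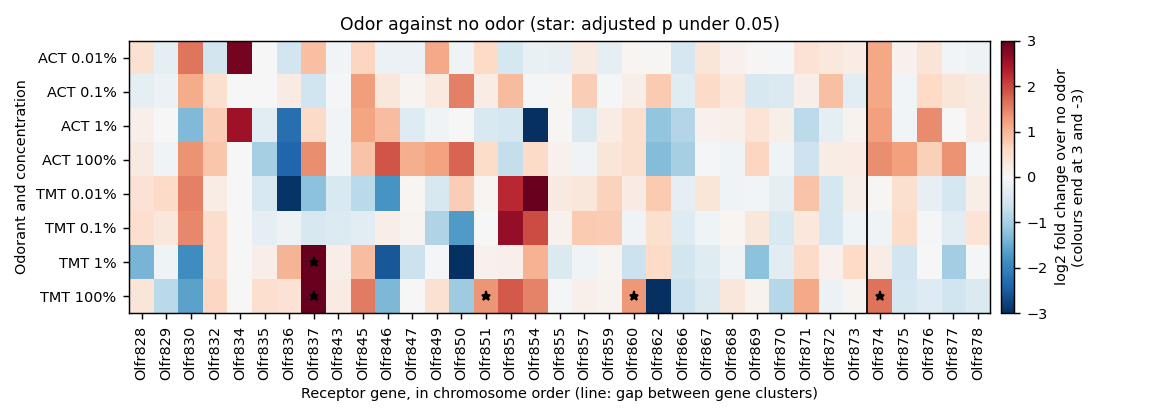
Log2 fold change over no odor for the 35 ORs (columns, in chromosome order) at each odorant and concentration (rows), with a star where the adjusted p is under 0.05. Colours end at 3 and -3; the 5 stars are all in the 1% and 100% TMT rows, and squares past 2 or -2 without a star belong to Olfr834, Olfr836, Olfr846, Olfr850, Olfr853, Olfr854 and Olfr862, all below 5 normalized counts on average without odor.

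Olfr874 had the smallest p at 100% TMT. The 3 libraries held 208, 191 and 259 normalized counts and their no odor littermates 82.0, 56.0 and 68.1. Each odor library was above each of the 12 no odor libraries of the study, which reached at most 121. The log2 fold change was 1.62 ± 0.28 (SE, adjusted p = 3.05e-07 by edgeR), a 3.08-fold rise. At 1% TMT the libraries held 58.8, 71.8 and 124 (log2 fold change 0.22), and the direct comparison of 100% with 1% in one fit of all 18 TMT libraries gave 1.40 ± 0.30 (adjusted p = 2.93e-04 by edgeR).

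Olfr860 held 82.5, 112 and 177 normalized counts at 100% TMT against 44.0, 53.8 and 41.3 in the no odor littermates. The groups did not overlap, and litter 3 contributed the largest rise, 4.28-fold, beside 1.87-fold and 2.08-fold in litters 1 and 2. The log2 fold change was 1.30 ± 0.34 (SE, adjusted p = 1.38e-03 by edgeR), and without litter 3 it was 0.97 with an adjusted p of 0.220 by edgeR. The library of litter 3 had 98 ORs more than 4-fold above its no odor littermate, against 30 and 63 in litters 1 and 2, and its part in the value of Olfr860 was not tested beyond leaving it out. At 1% TMT the values were 18.7, 39.4 and 33.9, all below every no odor library of that set, so the step from 1% to 100% was wider than the step from no odor (log2 fold change 1.98 ± 0.38, adjusted p = 5.18e-05 by edgeR).

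Olfr851 held 88.7, 149 and 252 normalized counts at 100% TMT and 24.3, 47.3 and 139 in the no odor littermates. The groups overlapped, since the no odor library of litter 3 was above the odor library of litter 1, yet within litters the odor library was 3.65-fold, 3.15-fold and 1.82-fold higher. The call therefore rested on comparing littermates: the log2 fold change was 1.33 ± 0.30 with litter as a block (SE, adjusted p = 1.63e-04 by edgeR) and 1.21 without it (adjusted p = 0.166). Against 1% TMT it was 1.22 ± 0.33 (adjusted p = 6.35e-03 by edgeR). Its no odor level was itself spread widely, from 24.3 to 156 over the 12 libraries.

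Olfr837 was the one member called at both 1% and 100% TMT, and its counts were few. Of the significantly enriched ORs at 100% TMT, the study had already reported the largest log2 fold change for Olfr837. It had 13, 17 and 5 counts at 1% TMT and 8, 14 and 8 at 100% TMT, against 1, 0 and 0 in the no odor littermates, and every odor library was above every no odor library of that set. The ratio of the summed counts was 30.9 at 1% (95% exact binomial interval 5.19 to 1250) and 30.4 at 100% (5.05 to 1240), intervals that cover counting error only. The fitted log2 fold changes were 4.76 ± 1.20 (SE, adjusted p = 2.02e-03 by edgeR) and 4.50 ± 1.32 (adjusted p = 6.65e-03 by edgeR), and 100% did not differ detectably from 1% (0.04 in the joint fit).

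The no odor level of Olfr837 differed between sets. In the set shared by 0.01% and 0.1% TMT the no odor libraries had 18, 2 and 0 counts, and in the sets of ACT they had 9, 5 and 0 and 2, 5 and 3. On the normalized scale the 12 no odor libraries ran from 0 to 24.2, which overlaps the 9.97 to 34.8 at 1% TMT and the 14.6 to 29.0 at 100% TMT. Set against all 6 no odor libraries of TMT, without the litter block, the log2 fold change was 1.91 at 1% (adjusted p = 0.481) and 1.87 at 100% (adjusted p = 0.163), a comparison added after the counts were seen. Without litter 2 neither concentration was called, and without litter 1 the call at 1% was lost as well (adjusted p = 0.207, 0.221 and 0.324). Its neighbour and closest relative Olfr836 had at most 8 counts in any pS6 library and log2 fold changes of 1.02 at 1% TMT and 0.42 at 100% TMT, neither called, and Olfr835, the next gene by number, had 0.21 at 1% and 0.51 at 100%, not called either.

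**Figure D4:**
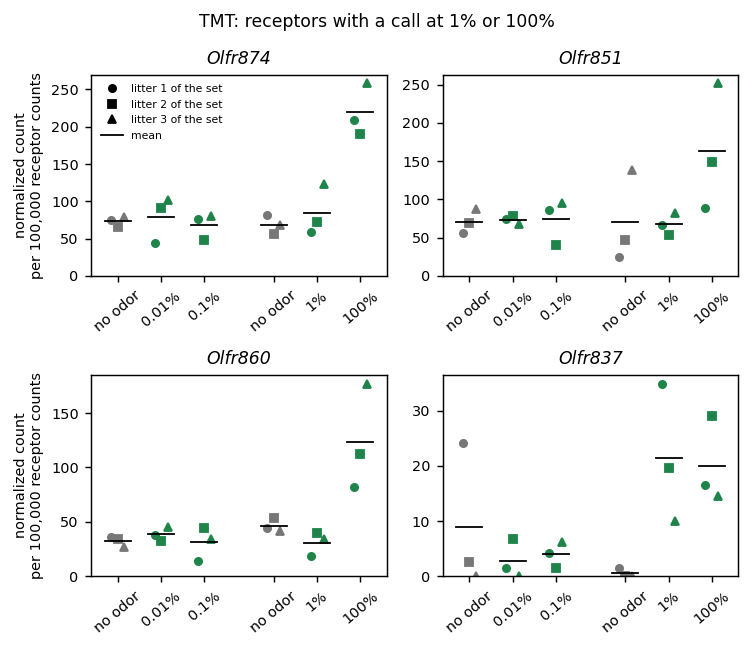
Normalized counts per library for the 4 ORs called at 1% or 100% TMT, with no odor libraries in grey, odor libraries in green, a symbol for each litter and a line at the mean. Olfr874 and Olfr860 at 100% lie above every no odor library of their set, Olfr851 overlaps, and Olfr837 has a no odor library at 24.2 in the other set.

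At the lower concentrations the same 4 ORs stayed within reach of their no odor libraries. Olfr874 held 43.7, 91.7 and 101 normalized counts at 0.01% TMT and 75.8, 47.5 and 79.8 at 0.1%, against 75.2, 65.4 and 79.5. Olfr851 held 74.2, 78.0 and 68.3 at 0.01% and 85.6, 40.1 and 95.7 at 0.1%, against 56.4, 69.3 and 87.8. Olfr860 held 37.8, 32.8 and 45.1 at 0.01% and 14.0, 44.6 and 34.6 at 0.1%, against 36.2, 34.0 and 26.5. All these groups overlapped. Olfr837 had 1, 5 and 0 counts at 0.01% TMT and 3, 1 and 7 at 0.1%.

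Among the remaining TMT values, the members with the smallest p at each concentration were not called. At 1% TMT, after Olfr837, they were Olfr877, with a log2 fold change of -1.05 ± 0.42 (adjusted p = 0.193 by edgeR), and Olfr873 (0.61). At 0.1% TMT Olfr849 had -0.91 ± 0.30 (adjusted p = 0.104 by edgeR), from 91.3, 82.4 and 80.9 normalized counts without odor to 44.9, 63.9 and 31.0. All 3 odor libraries of Olfr849 were below all 3 no odor libraries of that set, and the adjusted p stayed above the threshold. Olfr859 (0.76) and Olfr857 (0.78) followed at 0.1%, and Olfr859 (0.69), Olfr836 (3, 2 and 5 counts without odor, 1, 0 and 0 with odor) and Olfr849 (-0.49) had the smallest p at 0.01%, each with an adjusted p of 0.937 by edgeR.

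Olfr874 and Olfr875 differ at few bases and share a zone, and their values at 100% TMT went apart. Olfr875 held 41.3, 56.0 and 67.5 normalized counts at 100% TMT against 98.7, 73.2 and 58.3 without odor (log2 fold change -0.53, not called). The ratio of Olfr874 to Olfr875 counts within a library, into which no scaling enters, was 5.05, 3.41 and 3.84 at 100% TMT and 0.831, 0.765 and 1.17 in the no odor littermates. These ranges did not overlap (log2 difference 2.16, two-sided exact permutation p = 0.10, the smallest that 3 against 3 libraries can give). The permutation did not use the pairing by litter. Olfr874 had the smallest p at 100% TMT in these same libraries, so the ratio is not separate evidence. Over the 12 no odor libraries the ratio had a median of 1.24 and reached 5.09 in 1 library, in which Olfr875 had only 11 counts. Olfr876, with 89.11% and 89.01% coding identity to the pair, held 37.1, 35.3 and 21.9 at 100% TMT against 69.9, 38.7 and 19.4 (log2 fold change -0.39). Olfr862, the closest relative of Olfr860 (84.22%), had 1, 2 and 0 counts in the no odor littermates and none at 100% TMT, too few for a fold change.

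No member was called at any concentration of ACT. The shares over all ORs were 0% rising and 0% falling at 0.01%, 0.643% and 0% at 0.1%, 1.38% and 0.276% at 1%, and 0% and 0% at 100%. At an unadjusted p under 0.05 there were 0, 1, 0 and 5 members in that order, beside 2.57%, 3.49%, 7.35% and 14.2% of all ORs. The 5 members at 100% are 14.3% of the 35, the share of ORs at large. DESeq2 called none of the members at 100%, beside 2.11% of all ORs. The likelihood ratio test of edgeR called none at 0.01% or at 100%, beside 0.276% and 3.95% of all ORs. The study, with its own analysis, reported enriched ORs at every ACT concentration, more of them at 100% than at 0.01%. The absence of calls in the present fit thus does not show that ORs failed to respond to ACT. The members' median log2 fold change was 0.05, 0.24, 0.02 and 0.31, beside 0.03, 0.02, 0.03 and -0.01 over all ORs. Several distal genes were nevertheless high in single libraries, and leaving out 1 litter changed the calls.

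Olfr874 came closest. At 0.1% ACT it held 193, 134 and 109 normalized counts against 52.1, 76.0 and 64.1 without odor, so that each odor library was above each no odor library of its set. The log2 fold change was 1.17 ± 0.28 (SE, adjusted p = 0.0909 by edgeR). Olfr874 was called by edgeR's likelihood ratio test (adjusted p = 0.0153), in a fit that called 0.827% of all ORs. Without litter 3 it was also called (adjusted p = 0.0174 by edgeR), beside 1.1% of all ORs. DESeq2 did not call it (0.551% of all ORs called), nor did edgeR without litter as a block (0.643%). It was not called without litter 1 (log2 fold change 0.79) or without litter 2 (1.34, adjusted p = 0.935 by edgeR). Both of these fits called 0% of all ORs. At 1% ACT the values were 67.3, 224 and 551 against 89.1, 121 and 62.7, with litter 1 below its no odor littermate and litters 2 and 3 above theirs. At 100% ACT they were 204, 136 and 478, all above the no odor libraries (log2 fold change 1.39 ± 0.47, adjusted p = 0.194 by edgeR). At 0.01% ACT litter 1, the library that stood apart, held 627 and the others 78.2 and 71.0, against 52.1, 76.0 and 64.1. Without litter 1 the log2 fold change at 0.01% was 0.09.

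Olfr876 followed Olfr874 at 1% ACT and Olfr875 did not. At 1% ACT Olfr876 held 37.0, 149 and 417 normalized counts against 79.5, 49.8 and 39.9 without odor. The same libraries held 45.5, 61.1 and 44.8 for Olfr875 against 57.8, 54.6 and 47.5. Litters 2 and 3 were thus high for Olfr874 and Olfr876 and within the no odor range or close to it for Olfr875. With all 3 litters the log2 fold changes at 1% ACT were 1.23 for Olfr874 and 1.41 for Olfr876 (adjusted p = 0.986 by edgeR for both). Both values rested on which litters were in: without litter 3 they were 0.29 and 0.36 (adjusted p = 0.987 by edgeR), and without litter 1 they were 1.95 ± 0.35 (adjusted p = 6.33e-06 by edgeR) and 2.46 ± 0.37 (adjusted p = 8.93e-09 by edgeR), in a fit that called 1.93% of all ORs. The ratio of Olfr874 to Olfr875 was 1.48, 3.66 and 12.3 at 1% ACT against 1.54, 2.21 and 1.32 without odor, which overlaps (two-sided exact permutation p = 0.30). At 0.1% ACT it was 4.06, 3.02 and 2.20 against 1.02, 1.80 and 1.07, which does not (log2 difference 1.26, two-sided exact permutation p = 0.10, again the smallest possible). The ratio was tested for 8 odor groups in all, each time without the pairing by litter.

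At 100% ACT more of the distal genes were high, above all in litter 3. Olfr875 held 72.3, 104 and 255 normalized counts against 57.8, 54.6 and 47.5 (log2 fold change 1.22 ± 0.44, adjusted p = 0.210 by edgeR). Olfr877 held 38.3, 90.6 and 245 against 43.3, 45.0 and 26.6 (1.36 ± 0.55, adjusted p = 0.269 by edgeR). For Olfr875 all odor libraries were above all no odor libraries, and for Olfr877 litter 1 lay within the no odor range. The proximal genes Olfr849 and Olfr847 were also high. Olfr849 held 61.7, 108 and 201 against 43.3, 45.0 and 57.0 (1.20 ± 0.40, adjusted p = 0.187 by edgeR). Olfr847 held 63.8, 61.1 and 146 against 43.3, 49.8 and 24.7 (1.09 ± 0.47, adjusted p = 0.306 by edgeR). Olfr876 was high in litter 3 alone, with 53.2, 47.3 and 288.

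Litter 3 at 100% ACT had 90 of 922 ORs more than 4-fold above the no odor littermate, against 32 and 19 in litters 1 and 2, and 5 members were among them. Members averaging under 10 normalized counts were left out of this count. Without litter 3 the log2 fold changes of Olfr849, Olfr874, Olfr875, Olfr877 and Olfr847 were 0.91, 0.67, 0.64, 0.47 and 0.42. Without litter 1, Olfr849 (adjusted p = 0.0233), Olfr874 (0.0259), Olfr875 (0.0120) and Olfr877 (2.50e-03) were called by edgeR, in a fit that called 8% of all ORs. Olfr878, the last distal gene, held 78.7, 90.6 and 72.1 against 98.7, 111 and 45.6 at 100% ACT, overlapping groups.

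**Figure D5:**
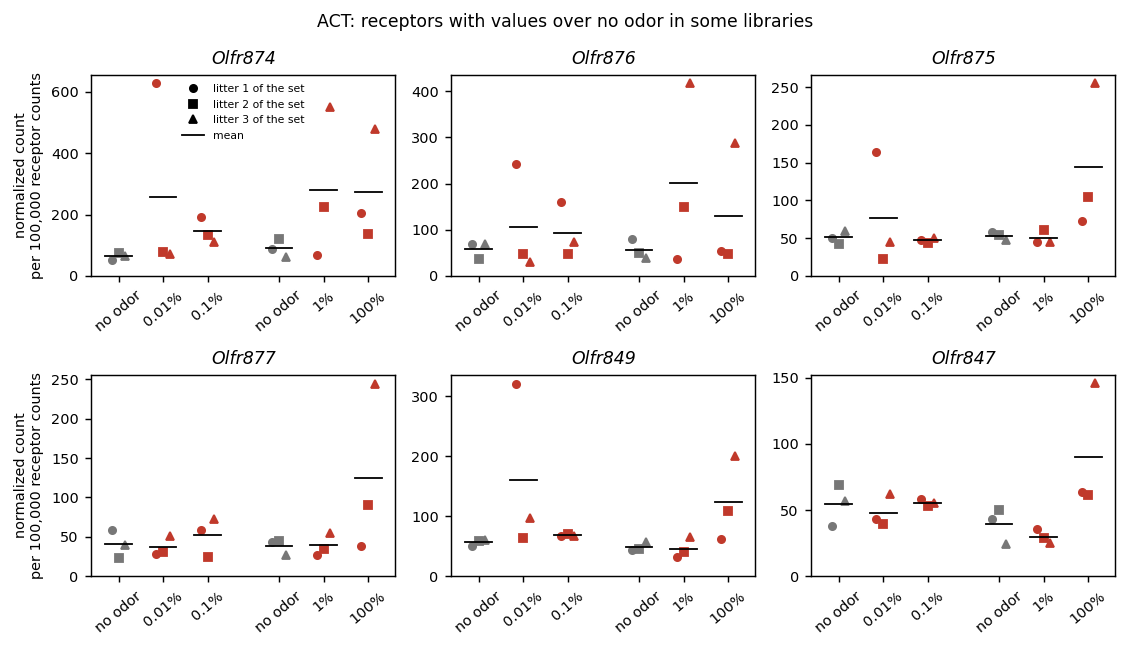
Normalized counts per library for 6 ORs at each ACT concentration, with no odor libraries in grey, ACT libraries in red, a symbol for each litter and a line at the mean. Litter 3 is the highest at 100% in all 6, litter 1 at 0.01% is high for Olfr874, Olfr876, Olfr875 and Olfr849, and litters 2 and 3 at 1% are high for Olfr874 and Olfr876.

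The ORs called for TMT had these values with ACT. Olfr837 had 4, 13 and 6 counts at 0.01%, 0, 3 and 7 at 0.1%, 9, 4 and 7 at 1% and 10, 4 and 15 at 100%. Olfr851 held 185, 142 and 93.2 normalized counts at 100% against 106, 156 and 41.8, and Olfr860 held 115, 15.8 and 36.9 against 16.9, 28.9 and 45.6. The groups of Olfr851 and Olfr860 overlapped. At 1%, Olfr851 held 38.7, 96.2 and 76.2 (log2 fold change -0.45) and Olfr860 held 30.3, 53.3 and 40.3. At 0.01%, Olfr851 held 147, 117 and 131 against 58.5, 144 and 73.9 (0.61), and Olfr860 held 39.0, 21.7 and 24.2 against 11.4, 34.6 and 39.1. At 0.1%, Olfr851 held 66.3, 129 and 113 and Olfr860 held 18.8, 37.6 and 34.2. None of these was called. Among the other members with the smallest p, Olfr849 had a log2 fold change of 1.13 at 0.01% ACT, with 321, 64.3 and 96.7 normalized counts against 50.9, 59.6 and 59.8, and 0.39 without litter 1. At 0.1% they were Olfr876 (0.60) and Olfr857 (0.74). At 1% they were Olfr836, with 3, 0 and 0 counts against 3, 5 and 3, and Olfr854, with none against 0, 4 and 0.

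The direct comparison of 100% with 1% ACT called no member (0% of all ORs rose and 0% fell), with 6 members (17.1%) at an unadjusted p under 0.05, all upward, beside 12.7% of all ORs in either direction. The smallest p were those of Olfr847 (1.59 ± 0.42, adjusted p = 0.210 by edgeR), Olfr849 (1.37 ± 0.43, adjusted p = 0.212) and Olfr877 (1.51 ± 0.49, adjusted p = 0.212). DESeq2 called Olfr847 (adjusted p = 0.0325), beside 1.75% of all ORs. Without litter 1, Olfr847, Olfr849, Olfr875 and Olfr877 were called, beside 5.88% of all ORs. Without litter 3 the log2 fold changes of Olfr847, Olfr875 and Olfr877 were 0.97, 0.72 and 0.99, none called (adjusted p = 0.863 by edgeR). That fit called 0% of all ORs. For TMT the same comparison called 3 members upward, Olfr860, Olfr874 and Olfr851, and none downward (8.57% of the members rose, beside 6.34% of all ORs that rose and 1.75% that fell), and the median log2 fold change was 0.34 for the members and -0.03 over all ORs.

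Whether the responses to 100% ACT and 100% TMT differed was tested directly as the difference of the 2 log2 fold changes. No member was called (0.46% of all ORs were higher in the ACT response and 0.276% in the TMT response). DESeq2 called no member either, beside 1.47% of all ORs. At an unadjusted p under 0.05 there were 5 members (14.3%), near the 13% of all ORs. Olfr875 had the smallest p, with a difference of 1.82 ± 0.53 in favour of ACT (adjusted p = 0.105 by edgeR), followed by Olfr877 (1.91 ± 0.68, adjusted p = 0.212) and Olfr837 (-3.27 ± 1.32, adjusted p = 0.285). For Olfr874 the difference was -0.28, with log2 fold changes of 1.39 for ACT and 1.62 for TMT. The difference of Olfr877 moved with the litters: it was 3.15 ± 0.69 without litter 1 of both odorants (adjusted p = 4.25e-03 by edgeR, the 1 member called, beside 5.33% of all ORs) and 0.82 without litter 3 (adjusted p = 0.959 by edgeR). The fit without litter 3 called 0% of all ORs.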

How the data were processed

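The authors aligned the 50-base reads with STAR, estimated counts per gene with RSEM on GRCm38 with a custom OR annotation, and deposited, for each comparison, estimated counts per OR rounded to whole numbers. The deposited tables also hold the authors' CPM, fold change and p-value columns, which were not used. The deposited group means (signal: counts divided by the authors' size factors over all genes) were solved for those size factors, which gave the all-gene scaling alternative; the tables themselves hold only ORs. The labels gave the groups, and 1 library at 0.1% TMT, whose description names the 1% file, was placed by its odor label.

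ORs without a count in a comparison (14 to 22 for the odors) were not fitted but stayed in the adjustment as not called. edgeR 4.0.16 (R 4.3.3) fitted a quasi-likelihood model with TMM scaling over OR counts and replicate number as a block, and p-values were adjusted by Benjamini-Hochberg over all ORs. DESeq2 1.42.0 was an alternative. Odor replicate numbers stood for littermates, per the study's methods, and deviations from group means correlated more within a number (median r 0.0754 to 0.145) than between numbers (-0.0714 to -0.0311). Deviations cancel out within a group, so the second range follows largely from the first and is not separate support. Single correlations within a number fell as low as -0.0774. Dorsal and ventral replicates did not pair in this way. Odor groups of a set share no odor libraries, so their comparisons are not independent. Scripts were tested on simulated data. Sequences and positions were read with Biopython 1.88 from GRCm38 and GENCODE M21.

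Members and lists were chosen with earlier results of these data known. Values were printed for members called in any odor comparison, the 3 smallest p in each, the 4 largest zone differences in each direction, the 5 highest and lowest levels, and Olfr835 to Olfr837.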

Additional observations from a re-analysis of the deposited data

How the results depend on the processing

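Of 138 recomputed counts of members called, 114 equalled the reported count or were within 1.5 times of it. Many of these were 0 against 0, which says little about how stable the calls were. Of 222 recomputed values of single members, 187 kept their call, 35 lost it and 0 reversed. Leaving out 1 litter gave the following ranges of member calls, with the share of all ORs called in brackets. For ACT they were 0 to 1 at 0.1% (0% to 1.1%), 0 to 2 at 1% (0% to 1.93%) and 0 to 4 at 100% (0.46% to 8%). For TMT they were 0 to 1 at 1% (3.86% to 4.96%) and 3 to 4 at 100% (9.01% to 11.6%). There were 0 to 10 ventral calls (18.5% to 37.7%). The direct comparison of 100% with 1% ACT gave 0 to 4 (0% to 5.88%) and the difference of the odors 0 to 1 (0% to 5.33%). At 0.1% ACT 1 member (Olfr874) was called without TMM (1.01% of all ORs called), with size factors over all genes (0.919%) and by the likelihood ratio test (0.827%). A minimum mean count of 10 left 0 members called at 1% TMT (5.85% of the ORs tested were called), since Olfr837 was not tested. DESeq2 called 3 ventral members (34.1% of all ORs) and 1 member for 100% against 1% ACT (1.75% of all ORs). Fitting without TMM called 14 ventral members (44.3% of all ORs). Size factors over all genes shifted log2 fold changes by -0.42 for the zones and -0.30 at 100% TMT, where all 4 members were still called. Without TMM the calls over all ORs split into 1.1% higher and 0.46% lower at 1% ACT and 3.77% and 1.01% at 1% TMT, and with the size factors into 1.38% and 0.184% at 0.1% TMT.

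Without the replicate block, 3 members were called at 100% TMT (12.6% of all ORs called) and 2 for 100% against 1% TMT (6.43%). The zones then had 7 dorsal (38.3% of all ORs) and 10 ventral members (40.2%). Leaving the block out changed no other count of members called. The dorsal and ventral libraries shared a number but deviated apart (median r -0.327 within and 0.195 between numbers). In alternatives chosen after seeing the data, all 12 no odor libraries without the block gave 2 calls among the 35 members at 0.01% ACT (7.35% of all ORs called), 1 at 0.1% (1.1%), 2 at 1% (3.86%) and 6 at 100% (15.4%), and 0 at 1% TMT (5.06%) and 2 at 100% (15.1%). All 6 of the odorant gave 4 at 100% ACT (9.56%) and 0 at 1% TMT (4.32%). With 37012 or more OR counts per library, members with few counts, such as Olfr834, could show only large changes.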
